A study of Citrus maxima and Citrus sinensis with 4 samples.

Results

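Among 699 predicted miRNA precursor loci in *Citrus* leaves, 70 loci carried a mature sequence that had no miRBase label and was listed at 2 to 9 loci of the table. These 70 loci held 26 distinct mature sequences. They were found by the label field and by the number of rows with the same mature sequence, and a further 20 locus identifiers were set aside, none of which removed a locus from this set. The whole table held 312 unlabelled and 387 labelled loci, and 579 distinct mature sequences. No member was listed at more than 5 loci: 16 sequences had 2 loci, 4 had 3 loci, 4 had 4 loci and 2 had 5 loci. Where the paper named a locus the name is used (ci-miRN1, ci-miRN3, ci-miRN18, ci-miRN29 and ci-miRN30, with a letter for each locus), and the other sequences are called by the identifier of their best covered locus.

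The 4 libraries were B-toxic *C. grandis*, control *C. grandis*, B-toxic *C. sinensis* and control *C. sinensis*. *C. grandis* (sour pummelo) is the B-intolerant species and *C. sinensis* ('Xuegan' sweet orange) the B-tolerant one. Seedlings in sand culture received 400 μM (B-toxic) or 10 μM (control) boric acid for 15 weeks, and small RNA was taken from mature leaves. Each library held mixed RNA of 5 replicates, so there was 1 library per condition and no replicate error: every test below compared libraries and not conditions, and every interval covers counting error alone. The libraries held 325441, 373890, 243277 and 346600 mature reads in the order above, and a table of small RNA loci holds no markers by which the leaf label could be checked.

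Plant miRNAs are cut by a Dicer-like enzyme from one arm of a hairpin precursor and guide an Argonaute protein to complementary transcripts. Sequences of 21 nt with a 5′ uridine are typical of slicing miRNAs, whereas 24 nt small RNAs are better known from the silencing of repeats and transposons, whose copies lie at many places in a genome. A small RNA read cannot by itself tell which of several identical copies it came from. No function is annotated in the table for any member, so the members are described here by sequence, precursor and level.

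The 15 sequences on which the results turn are shown 5′ to 3′ as deposited, with bases 2 to 8, the seed, in capitals. The first 4 were called in a comparison of B-toxic with control leaves.

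ci-miRN3: aACGGGGGauucuuuugguuggg
ci-miRN30: uUGUUGAGuguguauguuaca
ci-miRN18: uAACUUACaccacucacaugaaca
ci-miRN29: uUGUGUGCcacgaucuauuuaaac

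The next 7 were called in the comparison of the species or had a B effect that differed between the species.

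scaffold_2_228593: gUGCUCUCuaccauugucaua
scaffold_8_1284926: uACCUGGUugauccugcc
scaffold_8_1287840: uUGUGGGUuguguauguuaca
scaffold_2_309694: uGGAUGCAacuguggcacgguacc
scaffold_9_1393545: aCGACUCUuuaucagaaaaucugg
scaffold_15_1544201: gCUGGACGaacuuggcgccc
scaffold_3_489924: uCGAAUCGgguuauaaauuug

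The last 4 resembled another sequence of the table.

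scaffold_5_837744: uAGAUGCAacuguggcacggu
scaffold_9_1467612: uGGAUGCAacuguaguacggu
scaffold_7_1169001: uUGGACCAggcuucauuccac
scaffold_1_3141: uCAUGUGAguggauguaaguuaca

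Only scaffold_2_309694 and scaffold_9_1467612 shared a seed among the 26 members. The 26 sequences comprised 10 of 21 nt, 10 of 24 nt, 2 of 23 nt, 2 of 18 nt, 1 of 22 nt and 1 of 20 nt. A 5′ uridine began 16 of 26 (61.5%), against 81 of 232 (34.9%) unlabelled sequences with 1 locus and 23 of 42 (54.8%) labelled sequences with several loci. The share of 24 nt was 38.5% of the members, against 59.1% of the unlabelled sequences with 1 locus.

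The members took a small and uneven share of the mature reads. Summed over their 70 loci they made up 6.10% of the mature reads in B-toxic *C. grandis*, 7.69% in control *C. grandis*, 6.09% in B-toxic *C. sinensis* and 3.82% in control *C. sinensis*. Since reads were counted at each locus of a sequence, these sums count many reads repeatedly. Counting each sequence 1 time, by its highest locus, gave 2.59% and 3.09% in B-toxic and control *C. grandis* and 2.12% and 1.57% in B-toxic and control *C. sinensis*. The 4 loci of ci-miRN3 supplied 32600 of the 76673 member reads, and without them the summed shares were 3.92%, 3.72%, 2.53% and 3.24%. At their best covered locus 17 of the 26 sequences had at least 100 reads over the 4 libraries. The median was 194 reads per member locus, against 35 per unlabelled locus with a sequence of its own.

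**Figure D1:**
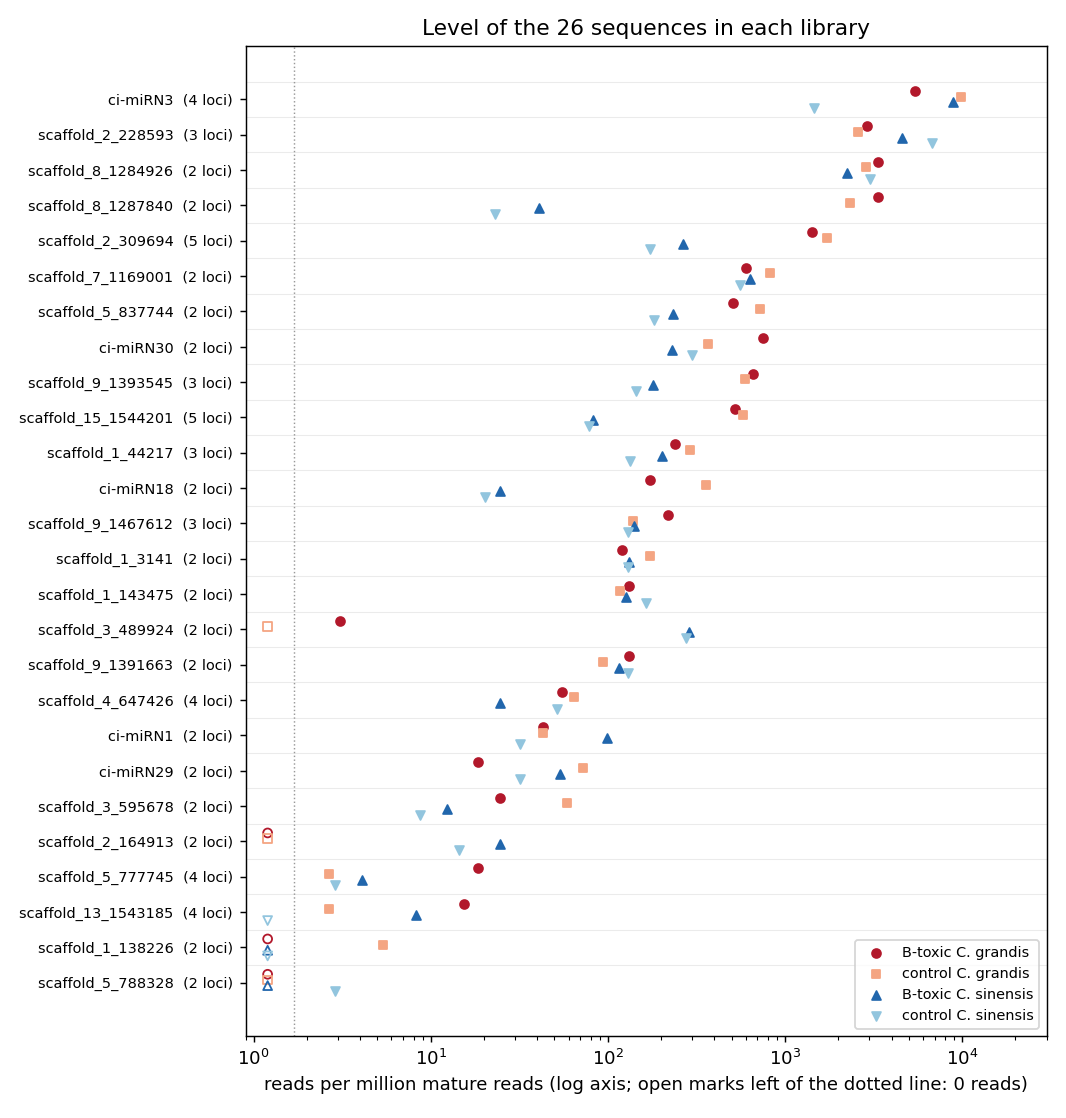
RPM (log axis) of the 26 sequences at their best covered locus in the 4 libraries, ordered by total reads; open marks stand for 0 reads. scaffold_8_1287840 and scaffold_3_489924 split widely by species, and the control *C. sinensis* mark of ci-miRN3, at 1451 RPM, lies apart from the other 3.

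B-toxicity: which of the repeated unlabelled sequences differed between B-toxic and control leaves was asked within each species. In *C. grandis* 3 sequences at 6 loci were called, ci-miRN30 higher and ci-miRN18 and ci-miRN29 lower in B-toxic leaves. In *C. sinensis* 1 sequence at 4 loci was called, ci-miRN3, which was 6.14-fold higher in B-toxic leaves. A call required an FDR below 0.01, from Fisher's exact test (2-sided) on the reads of a locus and the remaining mature reads of both libraries, with Benjamini-Hochberg adjustment over all tested loci of the table, and a ratio of at least 2. Of the member loci with a read, 6 of 66 were called in *C. grandis*, where 7.05% of all 638 tested loci were called, with 2 members higher (background 3.76%) and 4 lower (background 3.29%). With clean-read totals 2 were higher and 0 lower, where 34 of all loci were higher and 7 lower. With DESeq2 size factors 2 were higher and 1 lower, where 26 of all loci were higher and 11 lower. In *C. sinensis* 4 of 68 were called, all higher and all of 1 sequence, where 1.88% of the 640 tested loci were called, 1.41% higher and 0.469% lower. With each sequence counted 1 time, 2 of 24 member sequences were called in *C. grandis* (background 6.9%) and 1 of 25 in *C. sinensis* (background 1.72%), or 8.33% and 4% of the members, shares near those of the table. The median log2 ratio of member sequences was -0.07 in *C. grandis* (n = 22, all loci -0.09) and 0.19 in *C. sinensis* (n = 21, all loci 0.23).

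ci-miRN3, a 23 nt sequence with a 5′ adenine, was the most abundant member. Each of its loci had 1772 reads in B-toxic and 3708 reads in control *C. grandis*, which is 5445 and 9917 RPM (reads scaled to the mature total of a library). In *C. sinensis* it had 2167 reads in B-toxic and 503 in control leaves, or 8908 and 1451 RPM. The control *C. sinensis* library was thus the low one, and the B-toxic library lay below its control in *C. grandis* and above it in *C. sinensis*. The log2 ratio was 2.62 in *C. sinensis* (95% interval 2.48 to 2.76) and -0.87 in *C. grandis* (-0.95 to -0.78), where it fell short of the 2-fold limit although its FDR was 5.39e-100 by Fisher's exact test. The ratios of the species differed, with an FDR listed at 0 because it lay below the smallest number the computation holds (exact conditional test of equal ratios). The call in *C. sinensis* was lost when a coefficient of variation of 0.4 between replicates was assumed (FDR 0.40, edgeR exact test) and held at 0.2 (FDR 3.53e-07).

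ci-miRN30, a 21 nt sequence with a 5′ uridine, had 244 reads in B-toxic and 138 in control *C. grandis*, and 56 in B-toxic and 103 in control *C. sinensis*. The B-toxic library was the highest of the 4. Its log2 ratio was 1.02 (0.72 to 1.33) in *C. grandis* with an FDR of 1.84e-10 by Fisher's exact test, and -0.37 (-0.86 to 0.11) in *C. sinensis*, which was not called. The species' ratios were unequal with an FDR of 1.07e-05 (exact conditional test). The ratio in *C. grandis* lay at the 2-fold limit: with each sequence counted 1 time it was 0.98 on the log2 scale and no longer called.

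ci-miRN18, of 24 nt, had 56 reads in B-toxic and 134 in control *C. grandis* at ci-miRN18a, and 49 and 127 at ci-miRN18b. In *C. sinensis* the same loci had 6 and 4 reads in B-toxic and 7 and 6 reads in control leaves. The sequence was thus lower in B-toxic than in control *C. grandis* and near the counting floor in *C. sinensis*. The log2 ratios in *C. grandis* were -1.06 (-1.54 to -0.60) and -1.17 (-1.68 to -0.69), with FDRs of 2.2e-05 and 5.81e-06 by Fisher's exact test, while in *C. sinensis* the interval at ci-miRN18a ran from -1.56 to 2.09. A difference between species in this ratio was not detectable at this depth (FDR 0.367, exact conditional test). Scaled to the clean reads of each library, the ratio at ci-miRN18a was -0.80 and no longer called.

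ci-miRN29, also of 24 nt, was a low sequence, with 6 reads in B-toxic and 27 in control *C. grandis* and with 13 in B-toxic and 11 in control *C. sinensis*. Its log2 ratio in *C. grandis* was -1.97 with a wide interval (-3.54 to -0.66) and an FDR of 0.00757 by Fisher's exact test. The interval in *C. sinensis* was -0.52 to 2.05. With clean-read totals the FDR in *C. grandis* was 0.0243. With an assumed coefficient of variation of 0.2, none of these 3 sequences was called in *C. grandis* (edgeR exact test, FDR 0.338, 0.299 and 0.332 for ci-miRN18, ci-miRN29 and ci-miRN30).

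ci-miRN1, the last member with a name in the paper, was listed at 2 loci with 14 reads in B-toxic and 16 in control *C. grandis* and 24 in B-toxic and 11 in control *C. sinensis*. Its log2 ratio in *C. sinensis* was 1.64 (0.55 to 2.81) and its FDR, 0.0158 by Fisher's exact test, missed the threshold. It passed when loci with fewer than 10 reads were left out (FDR 0.00919). The interval in *C. grandis* was -1.14 to 1.14.

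**Figure D2:**
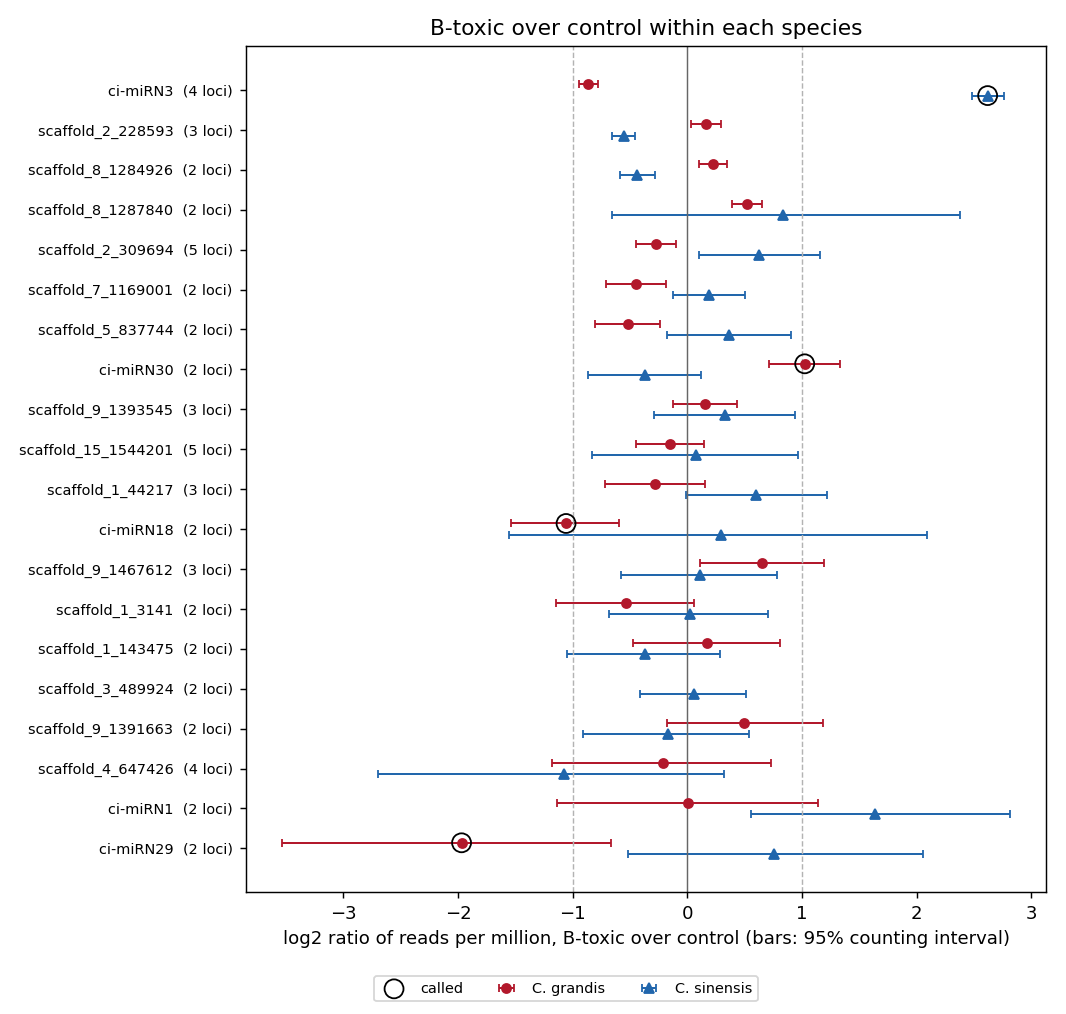
Log2 ratio of RPM, B-toxic over control, in *C. grandis* (circles) and *C. sinensis* (triangles) for the sequences with at least 50 reads; bars are 95% counting intervals, dashed lines the 2-fold limits and rings the calls. The *C. grandis* mark of ci-miRN3 lies at -0.87 and its *C. sinensis* mark at 2.62, and the sequences with few reads have intervals of several log2 units.

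Between these single libraries, the ratio of B-toxic over control differed between the species at 14 of 64 member loci (FDR below 0.01, exact conditional test). Of all 579 tested loci 13.3% did so. Counted 1 time, 6 of 23 member sequences differed (background 13.5%). By locus these were ci-miRN3, ci-miRN30, scaffold_2_228593, scaffold_8_1284926 and scaffold_2_309694, of which the first 2 are described above. The sixth, scaffold_7_1169001, passed only when each sequence was counted 1 time (FDR 0.00803, against 0.0152 by locus, exact conditional test).

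scaffold_2_228593, a 21 nt sequence with a 5′ guanine, was the second most abundant member. It had 946 reads in B-toxic and 971 in control *C. grandis*, and 1114 in B-toxic and 2335 in control *C. sinensis*, or 2907, 2597, 4579 and 6737 RPM. The control *C. sinensis* library was highest. The log2 ratio of B-toxic over control was 0.16 (0.03 to 0.29) in *C. grandis* and -0.56 (-0.66 to -0.45) in *C. sinensis*, neither reaching 2-fold, and the ratios differed at an FDR of 3.4e-16 (exact conditional test).

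scaffold_8_1284926, of 18 nt, had 1097 reads in B-toxic and 1079 in control *C. grandis*, and 543 in B-toxic and 1047 in control *C. sinensis*. Its bases are those with which the 18S ribosomal RNA of plants is known to begin. The authors' processing removed reads assigned to ribosomal RNA, and the origin of these reads was not tested. The log2 ratio was 0.22 (0.10 to 0.35) in *C. grandis* and -0.44 (-0.59 to -0.29) in *C. sinensis*, and the ratios differed at an FDR of 2.98e-10 (exact conditional test). The B-toxic *C. sinensis* library was the low one, at 2232 RPM against 3371, 2886 and 3021 RPM in B-toxic *C. grandis*, control *C. grandis* and control *C. sinensis*.

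scaffold_2_309694, of 24 nt, had 464 reads in B-toxic and 645 in control *C. grandis*, and 65 in B-toxic and 60 in control *C. sinensis*. The log2 ratio of B-toxic over control was -0.27 (-0.45 to -0.10) in *C. grandis* and 0.63 (0.10 to 1.16) in *C. sinensis*. The ratios differed at an FDR of 0.0098 (exact conditional test) at 3 of its 5 loci. The call was lost with TMM totals (FDR 0.0462) and with clean-read totals (FDR 0.207).

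Members were compared between *C. grandis* and *C. sinensis* over both treatments with edgeR's quasi-likelihood test, with B treatment as a term. The libraries of a species differed in treatment. The 1 residual degree of freedom was the difference in B effect between the species and not replicate error. For sequences whose B effect differed, such as ci-miRN3, that difference entered the error. The filter on low counts was grouped by species, so a locus could pass on reads in 1 species alone. scaffold_3_489924, with 1 and 0 reads in *C. grandis*, did so, and a call of such a locus was favoured by the filter. Of 54 member loci that passed it, 22 were called at an FDR below 0.05, of 7 sequences, against 31.5% of all 349 loci. Of these 17 were higher in *C. grandis* (background 15.8%) and 5 lower (background 15.8%). With each sequence counted 1 time, 8 of 20 were called (background 32.4%), the same 7 and scaffold_5_837744 (FDR 0.0216, edgeR). The count depended on scaling in its direction, for the whole table as well as for the members. Without TMM factors 19 member loci were higher and 2 lower, where 84 of all loci were higher and 45 lower. With clean-read totals 25 member loci were higher and 2 lower, where 103 of all loci were higher and 40 lower. With TMM 55 of all loci were higher and 55 lower. The clean-read totals moved all log2 ratios of *C. grandis* over *C. sinensis* by 0.23, and TMM over all loci moved them by -0.39, relative to plain mature totals. The test took TMM from the filtered loci, with which scaffold_2_228593 went from -1.01 to -1.43. With clean-read totals scaffold_9_1393545, scaffold_15_1544201, scaffold_2_309694, ci-miRN18 and scaffold_8_1287840 had edgeR log2 ratios of 2.19, 3.01, 3.10, 3.72 and 6.72.

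scaffold_8_1287840, a 21 nt sequence with a 5′ uridine, separated the species most among those with reads in all 4 libraries. It had 1089 reads in B-toxic and 873 in control *C. grandis*, against 10 in B-toxic and 8 in control *C. sinensis*. The levels were 3346 and 2335 RPM against 41.1 and 23.1 RPM. The edgeR log2 ratio of *C. grandis* over *C. sinensis* was 6.07 (FDR 0.000515), and with Fisher's exact test the log2 ratio was 6.35 (5.46 to 7.41) between the B-toxic libraries and 6.66 (5.68 to 7.88) between the control libraries. Within *C. grandis* its B-toxic level was 1.43-fold its control level (log2 0.52, 0.39 to 0.65), below the 2-fold limit.

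scaffold_3_489924, also of 21 nt with a 5′ uridine, went the other way. It had 1 read in B-toxic and 0 in control *C. grandis*, against 70 in B-toxic and 96 in control *C. sinensis*. Between the B-toxic libraries the log2 ratio was -6.55 with a counting interval of -11.87 to -4.02. Between the control libraries *C. grandis* was at least 34.5-fold lower, taking 3 reads as the floor for the library at 0. Within *C. sinensis* the B-toxic and control libraries gave a log2 ratio of 0.05 (-0.41 to 0.51). The species difference had an FDR of 0.00091 by edgeR.

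scaffold_15_1544201, of 20 nt and listed at 5 loci, had 170 reads in B-toxic and 217 in control *C. grandis*, against 20 in B-toxic and 27 in control *C. sinensis*. It was 6.35-fold higher in *C. grandis* between the B-toxic libraries and 7.45-fold between the controls (edgeR log2 2.36, FDR 0.00584). All 5 loci were called. At scaffold_45_1548475 *C. grandis* had 133 and 148 reads against 6 and 13 reads for *C. sinensis*, and the edgeR log2 ratio was 3.25 there.

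ci-miRN18 was higher in *C. grandis* as well, with 172 RPM in B-toxic and 358 RPM in control *C. grandis* against 24.7 RPM in B-toxic and 20.2 RPM in control *C. sinensis*. Its edgeR log2 ratio was 3.08 (FDR 0.0089). Without control *C. grandis*, in a fit with no term for B treatment, it was 2.45. scaffold_2_309694 was 5.34-fold higher in *C. grandis* between B-toxic libraries and 9.97-fold between controls (edgeR log2 2.45, FDR 0.00321), at 1426 and 1725 RPM against 267 and 173 RPM. For either sequence both *C. grandis* libraries lay above both *C. sinensis* libraries, and the share of all loci that did so was not counted.

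scaffold_9_1393545, of 24 nt, had 216 reads in B-toxic and 223 in control *C. grandis*, against 44 in B-toxic and 50 in control *C. sinensis* (edgeR log2 1.54, FDR 0.0215). The call was lost without the B-toxic *C. sinensis* library (log2 1.53) or without control *C. sinensis* (log2 1.47). Fits with a library left out had no term for B treatment, so the model changed along with the libraries. scaffold_2_228593 was lower in *C. grandis* (edgeR log2 -1.43, FDR 0.0316). With B-toxic *C. sinensis* left out its log2 ratio was -1.89. Its call was lost without B-toxic *C. grandis* (log2 -1.53), without control *C. grandis* (log2 -1.46) and without control *C. sinensis* (log2 -1.06), again without a term for B treatment. It was also lost without TMM factors (log2 -1.01, FDR 0.0657) and with clean-read totals (log2 -0.78, FDR 0.0629).

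ci-miRN3 and ci-miRN30 were not called between the species over both treatments. Within a treatment, Fisher's exact test called ci-miRN3 between the control libraries and ci-miRN30 between the B-toxic libraries. ci-miRN3 had a log2 ratio of *C. grandis* over *C. sinensis* of -0.71 (-0.80 to -0.62) between B-toxic and 2.77 (2.64 to 2.91) between control libraries. The B-toxic ratio had an FDR of 1.05e-52 by Fisher's exact test and missed the 2-fold limit. For ci-miRN30 the ratio was 1.7 (1.28 to 2.15) between B-toxic and 0.31 (-0.07 to 0.70) between control libraries.

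**Figure D3:**
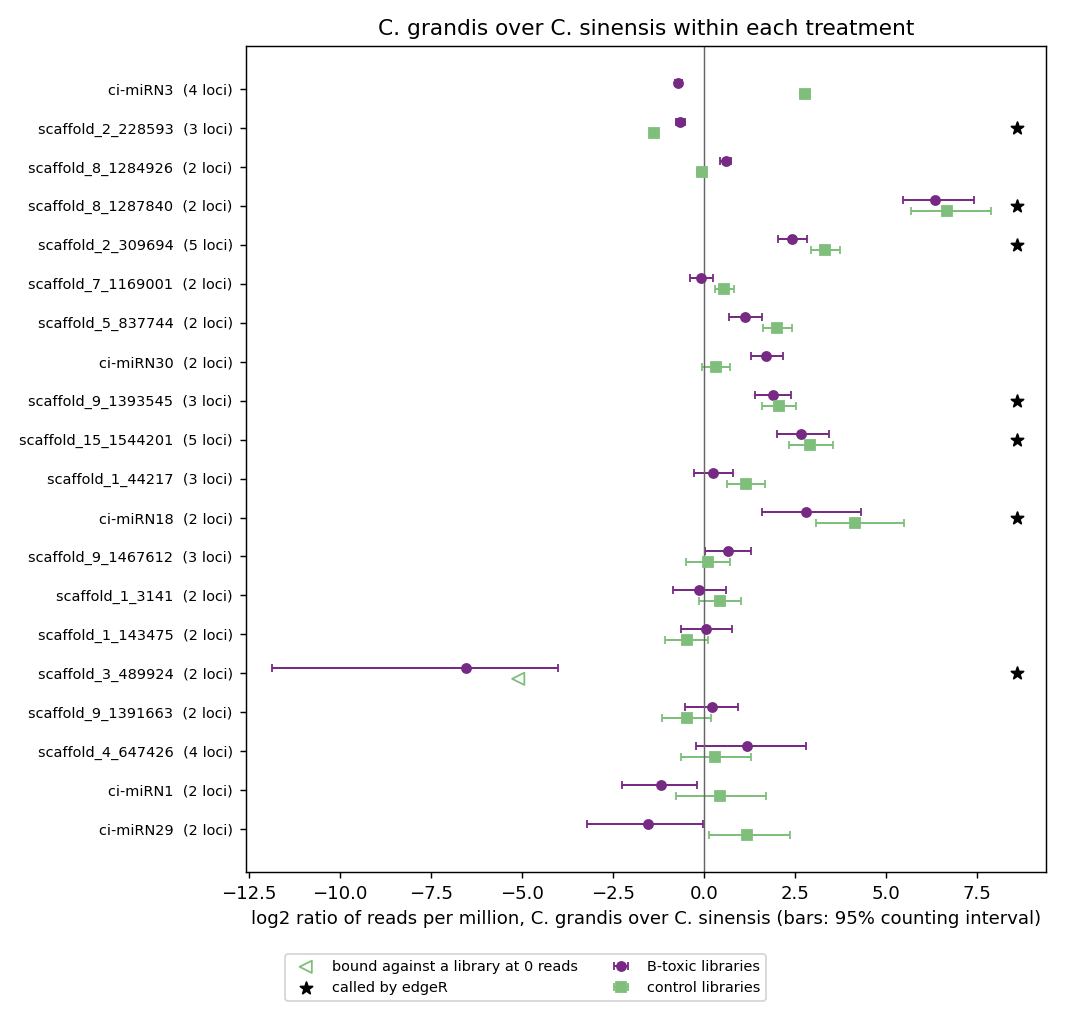
Log2 ratio of RPM, *C. grandis* over *C. sinensis*, between the B-toxic libraries (circles) and between the control libraries (squares) for the sequences with at least 50 reads; bars are 95% counting intervals stars mark calls of edgeR over all 4 libraries, and the open triangle is a bound against a library at 0 reads. scaffold_8_1287840 lies above 5 and scaffold_3_489924 below -4 in both treatments, and the ci-miRN3 marks lie on opposite sides of 0, at -0.71 and 2.77.

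Of the remaining sequences with at least 100 reads, none was called by locus for B-toxicity, for a difference in the B effect or between the species over both treatments. Counted 1 time, scaffold_7_1169001 and scaffold_5_837744 passed as given above. Between the control libraries alone, Fisher's exact test called scaffold_5_837744 and scaffold_1_44217, both higher in *C. grandis*, and it called scaffold_5_837744 between the B-toxic libraries too. scaffold_7_1169001 had 196 reads in B-toxic and 307 in control *C. grandis*, and 155 in B-toxic and 194 in control *C. sinensis*. scaffold_5_837744 had 165 and 272 reads in *C. grandis* and 57 and 63 in *C. sinensis*, B-toxic before control, with an edgeR log2 ratio of 1.14 (FDR 0.075) between the species. scaffold_1_44217 had 78 and 109 reads in *C. grandis* and 49 and 46 in *C. sinensis*, B-toxic before control.

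The other 4 of these were not called by locus in any comparison. In B-toxic and control *C. grandis* and B-toxic and control *C. sinensis*, scaffold_9_1467612 had 71, 52, 34 and 45 reads. Its log2 ratio was 0.65 (0.11 to 1.19) for B-toxic over control *C. grandis*. Between the B-toxic libraries it was 0.64 (0.03 to 1.28) for *C. grandis* over *C. sinensis*. scaffold_1_3141 had 39, 65, 32 and 45 reads. scaffold_1_143475, of 18 nt, had 43, 44, 31 and 57 reads, and scaffold_9_1391663 had 43, 35, 28 and 45 reads. The last 7 sequences, at 20 loci and without a name in the paper, had between 1 and 66 reads in all and at most 24 in a library. Of these 4 had no read in at least 1 library. None was called for B-toxicity, for a difference in the B effect or between the species over both treatments. Between the control libraries alone, Fisher's exact test called scaffold_3_595678 at 1 of its 2 loci, with 22 reads in *C. grandis* against 3 in *C. sinensis* (log2 2.77, 1.03 to 5.15, FDR 0.000781).

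Several members were variants of other sequences in the table. Positions are counted from 1 at the 5′ end of scaffold_2_309694, scaffold_8_1287840 or scaffold_7_1169001 in their comparisons. The base before the number is the one in that sequence. scaffold_5_837744 differed from scaffold_2_309694 by G2A over 21 bases, and scaffold_9_1467612 by G14A and C16U. Both belonged to a wider group that included labelled and unlabelled loci outside the set, shown here with the seed in capitals.

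sbi-miR6232a-3p label, 3 loci: uGGAUGUAacuguggcacggu
scaffold_10_1542597, 10 loci: aCGGCUGGaugcaacuguggcacg

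The sequence with the sbi-miR6232a-3p label differed from scaffold_2_309694 by C7U over 21 bases, inside the seed, and had the opposite species pattern. It had 22 reads in B-toxic and 16 in control *C. grandis*, against 354 in B-toxic and 541 in control *C. sinensis* (edgeR log2 -5.20, FDR 0.000515), where scaffold_2_309694 had a log2 ratio of 2.45. scaffold_10_1542597 overlapped scaffold_2_309694 without a substitution over 19 bases, shifted by 5 bases, and was higher in *C. grandis* too, with 2352 and 2419 reads against 114 and 102 reads (edgeR log2 3.78). The whole mature sequence of scaffold_2_309694 also lay unchanged in precursors of this 10-locus sequence, such as those of scaffold_10_1542597 and scaffold_1_21336. Which precursors its reads came from was not tested. scaffold_9_1467612, with 2 substitutions, did not differ between the species beyond its error (edgeR log2 -0.05, FDR 0.948). The sequence with the sbi-miR6232a-3p label, of 21 nt, and scaffold_2_309694, of 24 nt, thus had species ratios of opposite sign. The unlabelled scaffold_6_1047339, 1 substitution (C16U over 20 bases) from scaffold_2_309694, had an edgeR log2 ratio of 0.73 (FDR 0.148). A sequence with the osa-miR319a-3p label also shared 19 bases with scaffold_2_309694. Outside this group, the unlabelled scaffold_23_1546101 matched scaffold_15_1544201 without a substitution over 19 bases and was higher in *C. grandis* too (edgeR log2 3.84).

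scaffold_8_1287840 and ci-miRN30 also formed a pair, differing by G5U, G7A and U8G over 21 bases, all within the seed. The first was 6.07 on the log2 scale higher in *C. grandis* and the second 0.58 (FDR 0.448, edgeR). Both had their highest count in B-toxic *C. grandis*, 1089 and 244 reads.

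scaffold_7_1169001 lay 2 substitutions, U2C and A20C, from the sequence with the ath-miR165a label, which belongs to a family known in *Arabidopsis* to direct slicing of class III homeodomain leucine zipper transcripts.

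ath-miR165a label: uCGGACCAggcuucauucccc

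The labelled sequence was far more abundant, with 25394 reads in B-toxic and 34070 in control *C. grandis* and 11027 in B-toxic and 22159 in control *C. sinensis*. The first substitution is in the seed. Whether the reads of scaffold_7_1169001 include variants of the labelled sequence was not tested.

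Finally, ci-miRN18 and scaffold_1_3141 were nearly complementary: the mature sequence of ci-miRN18 aligned to the reverse complement of both scaffold_1_3141 precursors with 1 edit. Their species patterns differed. ci-miRN18 was lower in *C. sinensis* (6 and 7 reads), and scaffold_1_3141 had 32 reads in B-toxic and 45 in control *C. sinensis* (species FDR 0.731, edgeR). Within *C. grandis* both had fewer reads in B-toxic than in control leaves, 56 against 134 at ci-miRN18a and 39 against 65 at scaffold_1_3141. The log2 ratio of scaffold_1_3141 there was -0.54 (-1.15 to 0.06) and was not called.

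Loci of 1 sequence differed in their precursors and, for some sequences, in their counts. Of the 26 sequences 5 had a single precursor sequence at all their loci, among them ci-miRN1 and ci-miRN3, whose 4 loci all lay on scaffold_1366. In 20 sequences all precursors were distinct, and pairwise identity fell to 41.2% for scaffold_15_1544201. All loci of 12 sequences lay on 1 scaffold. The counts were equal in every library at all loci of 15 sequences, whereas the loci of 6 sequences differed by more than 10% in total reads.

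The unequal counts followed the bases beside the mature sequence. There were 47 pairs of loci, from 20 sequences, that shared the base before and the 3 bases after the mature sequence. All 47 had total counts within 1% of each other. In 21 of them the whole precursors were identical, so that equal counts follow from the sequence, which leaves 26 of 26 pairs with distinct precursors. Pairs of loci of 1 sequence are not independent. Some also had few reads, such as 9 at each of the 4 loci of scaffold_5_777745, where only equal counts lie within 1%. Among 21 pairs, from 11 sequences, in which one of these bases differed, 4 were within 1%, and the median difference was 22.8%. A further 4 pairs had a precursor that ended within these bases. This window was chosen after the counts were seen. Identity of the whole precursor did not separate the pairs in the same way, because pairs with identities below 60% and equal flanks had equal counts to within 0.709%.

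These 5 loci show this, with the mature sequence in lower case and the flanking bases in capitals. The first 3 are loci of scaffold_15_1544201 and the others of scaffold_9_1467612.

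scaffold_15_1544201: CgcuggacgaacuuggcgcccCGG
scaffold_93_1549582: CgcuggacgaacuuggcgcccCGG
scaffold_45_1548475: UgcuggacgaacuuggcgcccCGG
scaffold_9_1467612: UuggaugcaacuguaguacgguACC
scaffold_3_537036: UuggaugcaacuguaguacgguACU

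scaffold_15_1544201 and scaffold_93_1549582, with a cytosine before the mature sequence, had 434 reads each, and scaffold_45_1548475, with a uracil there, had 300 reads. By library, the first 2 loci had 170 reads in B-toxic and 217 in control *C. grandis* and 20 in B-toxic and 27 in control *C. sinensis*, and scaffold_45_1548475 had 133, 148, 6 and 13 reads. Whether this gap differed between the species was not tested. scaffold_9_1467612 had 202 reads and scaffold_3_537036 had 156. For scaffold_2_309694, 3 loci with a cytosine before the mature sequence had 1233 or 1234 reads and 2 loci with a uracil had 892 and 871 reads. Only the 3 loci with the higher counts passed the test for a B effect that differed between the species. Whether reads longer than or shifted from the listed sequence enter the counts was not tested.

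**Figure D4:**
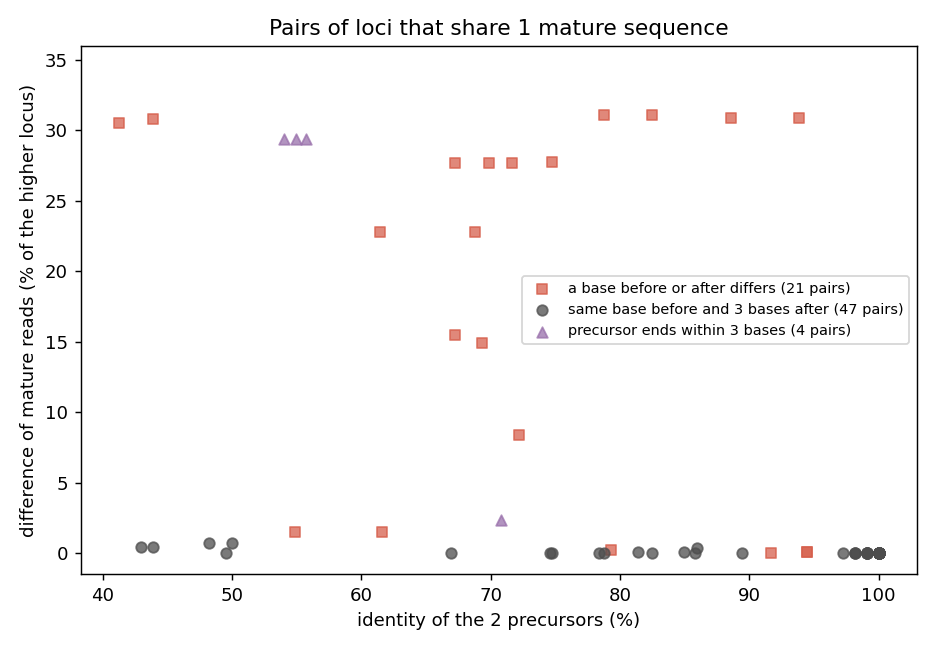
Difference in mature reads between 2 loci of the same sequence, in percent of the higher locus, against the identity of their precursors for all 72 pairs; circles share the base before and the 3 bases after the mature sequence, squares do not, and triangles have a precursor that ends there. All 47 circles lie within 0.709% of 0 at every identity, and squares reach 31.1%.

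The deposited precursors of the members, 108 to 114 nt long, were folded with RNAfold. The median minimum free energy was -0.369 kcal/mol per base over the 70 loci, against -0.267 for unlabelled loci with 1 locus, -0.281 for labelled loci with several and -0.253 for labelled loci with 1. The 10 loci of the unlabelled sequence listed 10 times had a lower median, -0.543. The members fell at both ends of this range. In 11 sequences every precursor was at or below -0.4 kcal/mol per base, and in 7 sequences every precursor was above -0.3. Loci of 1 sequence are copies and not independent, so no test was made.

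Of the sequences called for B-toxicity, ci-miRN30 had precursors at -0.512 and -0.461 kcal/mol per base with all 21 mature bases paired, and those of ci-miRN18 were at -0.505 and -0.390. ci-miRN3 was at -0.369 with 16 of 23 bases paired. ci-miRN29 had weak predicted hairpins, at -0.180 and -0.163, with 13 of 24 bases paired. In 7 sequences all mature bases were paired at every locus, including scaffold_3_489924, and in 9 fewer than 70% were paired at some locus, including scaffold_8_1284926 with 10 of 18.

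The mature sequence lay in the 5′ part of the precursor at 17 of 70 member loci (24.3%), against 53.4% of unlabelled loci with 1 locus, 42.2% of labelled loci with several, 53.2% of labelled loci with 1 and 0 of the 10 loci of the unlabelled sequence listed 10 times. In 20 sequences it was in the 3′ part at every locus, and in 3, among them ci-miRN3 and ci-miRN18, in the 5′ part at every locus.

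Reads elsewhere on the precursor were few. At the median member locus 2.28% of precursor reads were not counted as mature, against 8.27% at unlabelled loci with 1 locus, 2.14% at labelled loci with several, 2.61% at labelled loci with 1 and 0.137% at the 10 loci of the unlabelled sequence listed 10 times. At 8 of 70 member loci there were none. For ci-miRN3 the share was 0.355% (29 reads, exact interval 0.238% to 0.509%). The larger shares among abundant members were 14.5% at scaffold_8_1284926 (639 reads, 13.5% to 15.6%) and 13.0% at scaffold_2_228593 (801 reads, 12.2% to 13.9%). scaffold_9_1393545 varied among its loci, with 2.02% at the named locus, in the 5′ part, and 20.8% at scaffold_2_264664, in the 3′ part, although their mature counts of 533 and 525 reads were close.

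**Figure D5:**
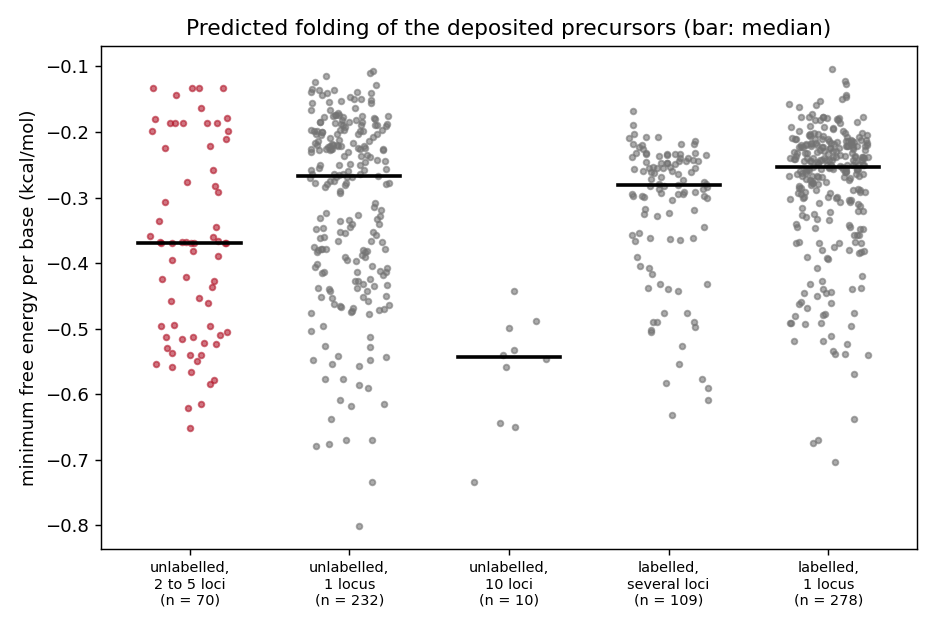
Minimum free energy per base (kcal/mol) predicted for each deposited precursor, by class of locus; each point is a locus and each bar the median. The 70 loci of the unlabelled repeated sequences have a median of -0.369 and spread from -0.652 to -0.133, the 10 loci of 1 further unlabelled sequence have a lower median of -0.543, and the remaining classes have medians of -0.267, -0.281 and -0.253.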

How the data were processed

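Small RNA of leaves was sequenced as 4 libraries, 1 per species and B treatment, each from mixed RNA of 5 replicates. Groups follow the labels. Per the authors, junk reads, structural RNA and repeats were discarded and the rest compared with miRBase 21. They predicted precursors on the *C. clementina* genome (version 1.0) from reads of 18 to 30 nt with MTide, and deposited counts of the mature sequence per locus and library without normalization. The counting of reads that match several loci is not described. The deposited sequences were used as given, and loci were not placed on a genome.

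RPM were scaled to the mature reads of a library. The tests were Fisher's exact test and an exact conditional test of equal ratios (SciPy 1.17.1), and edgeR 4.0.16 in R 4.3.3. For edgeR, TMM and its own filter on low counts, grouped by species, were used. All tests ran over the whole table with Benjamini-Hochberg adjustment. Intervals are exact (Clopper-Pearson, 95%) and cover counting error only, since PCR copies cannot be told apart. A library at 0 reads was set to 3 reads for a bound. Precursors were folded with ViennaRNA 2.7.2 and aligned with edlib. The tests were tested on simulated counts. Alternatives were other totals, DESeq2 1.42.0, each sequence counted 1 time, filters, an assumed spread and each library left out. The edgeR fits with a library left out had no term for B treatment.

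Values per library were given for each sequence with at least 100 reads, a call or a name in the paper, and sequences were printed for those called, related to another or among the 5 with the most reads. Loci outside the set were named only where a member lay within 3 substitutions over at least 17 bases, and not all such loci were named. The members and lists were chosen with earlier results of these data known.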

Additional observations from a re-analysis of the deposited data

Results flagged for a closer look

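Of the member sequences, 5 had a ratio of B-toxic over control that differed between *C. grandis* and *C. sinensis* by the exact conditional test, at their best covered locus. The adjusted p-value was 0, below the smallest number the computation holds, for ci-miRN3, which was lower in B-toxic *C. grandis* (1772 against 3708 reads) and higher in B-toxic *C. sinensis* (2167 against 503 reads). It was 1.07e-05 for ci-miRN30 by the exact test, with 244 against 138 reads in *C. grandis* and 56 against 103 in *C. sinensis*, B-toxic before control. It was 3.4e-16 for scaffold_2_228593 and 2.98e-10 for scaffold_8_1284926 by the exact test, both lower in B-toxic *C. sinensis* by less than 2-fold (log2 -0.56 and -0.44). It was 0.0098 for scaffold_2_309694 by the exact test, just inside the threshold. Each condition had 1 library, so these differences are between libraries, and other scalings are given below.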

How the results depend on the processing

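No paired analysis was possible because each condition had 1 library. Calls over the whole table follow the member calls in brackets. For B-toxicity in *C. grandis*, the 6 (45) became 2 (41) with clean-read totals, 3 (37) with DESeq2 size factors and 22 (112) without a limit on the ratio. They became 0 when replicates were taken to vary by a coefficient of 0.2 or of 0.4 (edgeR exact test, with 10 and 3 calls in the table). In *C. sinensis* the 4 (12) became 9 (57) without a limit on the ratio and 0 (0) at 0.4. In *C. grandis* and *C. sinensis* they were 6 (47) and 4 (13) with TMM totals and 6 (48) and 6 (16) with at least 10 reads. Counted 1 time, 2 (36) and 1 (9) sequences were called in *C. grandis* and *C. sinensis*, against 3 and 1 by loci. The 14 (77) loci whose B effect differed between the species were 11 with each of 3 other totals. Over the whole table the calls were 55 with clean-read totals, 62 with TMM and 55 with DESeq2 size factors. scaffold_2_309694 was the called member sequence lost with each of these totals. Clean-read totals moved log2 ratios of B-toxic over control by 0.25 for *C. grandis* and by -0.06 for *C. sinensis*, and DESeq2 size factors by 0.15 and -0.16. For the species difference, 22 (110) loci were called, 21 (129) without TMM, 27 (143) with clean-read totals, 22 (90) with DESeq2 and 26 (158) without a filter. Fits with a library left out had no term for B treatment and 1 library of 1 species. Their counts are therefore not given, and they enter the tally below by sequence. Between 2 libraries alone, Fisher's exact test called 23 (158) for B-toxic and 32 (163) for control leaves. No direction of a called sequence reversed under these alternatives, and of their values 109 kept the call and 24 lost it. Part of this tally was fixed in advance. Leaving out the limit on the ratio could not remove a call, and other totals moved log2 ratios too little to reverse a 2-fold ratio. The summed share of mature reads was 2.59%, 3.09%, 2.12% and 1.57% in B-toxic and control *C. grandis* and B-toxic and control *C. sinensis* with each sequence counted 1 time, and 3.92%, 3.72%, 2.53% and 3.24% without the 4 loci of ci-miRN3, an alternative chosen after seeing the data. Of clean reads the sums were 0.238%, 0.251%, 0.181% and 0.118%. The cause of these changes was not tested. At these depths a library at 0 reads allows up to 8.02 to 12.3 RPM.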
